A study of Mus musculus with 2 samples.

Results

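Reln, Pou3f3, Insm1, Fstl1, Tjp1 and Klhl32 are 6 genes better known from brain, endocrine, connective and epithelial tissue than from thymocytes, and each gave a far higher signal on 1 of the 2 thymocyte arrays of this study. They were taken by gene symbol, as every probe set (a group of short array probes read as 1 value) annotated to 1 of these genes alone. This gave 12 probe sets for 6 of the 18193 genes on the arrays. The genes were picked because of this difference, so their signals are described here and support no test.

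The arrays hold RNA of lineage-marker-negative thymocytes of C57BL/6J mice. Cells with lineage markers were depleted with beads, the labels mention culture in standard medium with no time, and the title names the cells DN (double-negative). The design text gives both groups loss of Cdkn2a and of Ring1A (gene symbol Ring1) together with a floxed Ring1B (gene symbol Rnf2), with no Cre in DKO and with LckCre in TKO, a recombinase driven by the promoter of a T-lineage kinase. The samples' own genotype field instead names loss of Ring1A and Ring1B for DKO, with Cdkn2a lost as well in TKO. Neither the age of the mice nor the number of animals behind an array is given. Both RING1 proteins are catalytic subunits of Polycomb repressive complex 1, which attaches ubiquitin to histone H2A, and the study compared early thymocytes of these genotypes.

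Each label had 1 array, so there is no spread between animals or cultures, no p-value was calculated, and higher or lower describes these 2 hybridisations. The number of arrays limits the precision. Signals are the deposited MAS5 intensity values, a linear scale in arbitrary units on which an absent transcript does not read 0. A floor was therefore set at the median signal of each array, 68.8 for DKO and 71.8 for TKO, and a gene counted as measured on an array when it reached the floor. A ratio is the TKO over the DKO signal with values below the floor raised to it, so a fold against such a value is a lower bound, written as at least. A difference was counted at 2-fold, a log2 ratio of 1.

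Several features of the arrays stand beside all values that follow. Cdkn2a read 679 on the array labelled DKO and 18.5 on the array labelled TKO. This goes against the design text and has the direction that the samples' genotype field gives, so Cdkn2a status may differ between the labels. Rnf2 read 4149 and 4384 (log2 ratio 0.08). The samples' genotype field names it as lost in both groups, while the design text gives its floxed form LckCre in TKO alone. Its signal was not lower on the array labelled TKO. Ring1, which both texts give as lost in both groups, read 133 and 147 (log2 ratio 0.15), above the floor on both arrays like Rnf2. Whether these probes fall within the deleted exons is not known here, so arrays are named by their labels. Xist and the Y-linked Eif2s3y differed in opposite directions, at 124 and 16502 for Xist and at 1711 and 55.3 for Eif2s3y, so sex, which the labels do not give, went with the label. All 6 measured B cell markers of a list of 7 (Ms4a1, Ebf1, Pax5, Blnk, Cd79b and Cd79a) were at least 2-fold higher on the array labelled TKO, their summed signal going from 4915 to 18399. The 6 measured T cell markers had log2 ratios between -0.73 and -0.18, none of them past 2-fold, and their summed signal was 74355 and 50867. The part of sex and of these cell markers in the values of the 6 genes was not tested. In bulk RNA, more cells of a type and more RNA per cell cannot be told apart.

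Reelin, the product of Reln, is a large secreted glycoprotein that Cajal-Retzius cells release to guide migrating neurons. It binds the lipoprotein receptors Vldlr and ApoER2 (Lrp8), and the adaptor Dab1 is then phosphorylated by Src-family kinases. Pou3f3 (Brn1) is a POU-homeodomain transcription factor of cortical neurons and kidney, and Insm1 is a zinc-finger repressor of neuroendocrine differentiation that recruits histone-modifying corepressors through an N-terminal SNAG motif. Fstl1 is a secreted follistatin-like glycoprotein of mesenchymal cells that modulates BMP signalling. Tjp1 (ZO-1) is the scaffold that ties tight junction proteins to actin. Klhl32 belongs to the Kelch-like family, many of whose members hand substrates to the ubiquitin ligase Cul3. Polycomb complexes are known to hold many developmental genes silent, often at promoters rich in CG dinucleotides.

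The sequence just before the start of transcription is described for the members. They were picked for being higher, so that they were higher together is no result, and shared regulation was not tested. RefSeq windows of build GRCm38.p6 were listed for 5 of the 6 genes, and the 250 bases before the start are shown for the 3 of them that were below the floor on the array labelled DKO. Capitals mark CG. The windows are chr5:22344706-22344955 on the minus strand for Reln, chr1:42695518-42695767 on the plus strand for Pou3f3 and chr16:37776805-37777054 on the plus strand for Fstl1, each 5′ to 3′.
Reln: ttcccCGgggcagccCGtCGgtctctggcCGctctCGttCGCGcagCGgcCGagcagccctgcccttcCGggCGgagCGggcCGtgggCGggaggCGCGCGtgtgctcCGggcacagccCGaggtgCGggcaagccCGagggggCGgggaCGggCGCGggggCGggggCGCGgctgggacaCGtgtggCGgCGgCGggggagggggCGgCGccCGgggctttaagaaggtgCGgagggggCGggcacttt
Pou3f3: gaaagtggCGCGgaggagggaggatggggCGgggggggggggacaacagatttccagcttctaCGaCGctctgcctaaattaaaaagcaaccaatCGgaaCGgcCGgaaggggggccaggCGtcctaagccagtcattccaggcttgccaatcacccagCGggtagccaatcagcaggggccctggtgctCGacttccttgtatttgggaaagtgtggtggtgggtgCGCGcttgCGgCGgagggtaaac
Fstl1: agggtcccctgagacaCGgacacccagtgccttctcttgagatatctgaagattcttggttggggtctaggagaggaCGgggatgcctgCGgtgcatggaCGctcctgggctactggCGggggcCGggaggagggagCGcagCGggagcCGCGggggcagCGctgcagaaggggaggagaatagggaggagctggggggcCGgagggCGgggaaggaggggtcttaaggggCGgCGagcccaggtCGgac

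The Reln window held 37 CG dinucleotides, and 2.20% of the 32851 promoter windows of this length in the table held at least as many. Tjp1 held 22, Klhl32 17, Fstl1 16 and Pou3f3 15, against a median of 6 over all windows. At least the 15 of Pou3f3 were present in 27.3% of windows, so a window as CG-rich as that one is common. The Tjp1 window precedes a start that lies inside the annotated span of the gene. The letters GGGCGG, a box bound by Sp1-type factors, were searched on both strands and overlap CG by construction. They occurred 6 times before Reln, 2 times before Fstl1 and Tjp1, 1 time before Pou3f3 and not before Klhl32, and 32.7% of all windows held at least 1. The letters TATAAA, searched likewise, were in none of the 5 windows and in 12.4% of all. The palindrome CCCNNGGG, the core of the motif of the B-lineage factor Ebf1, occurred 2 times before Reln and in none of the other windows, and in 11.8% of all; it can overlap CG. These matches describe the letters in the windows and show no binding.

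All 6 genes were at least 2-fold higher on the array labelled TKO, and 4 of them (Reln, Pou3f3, Insm1 and Fstl1) were measured on that array alone. Over all genes measured on at least 1 array, 3.58% (404 of 11280) were at least 2-fold higher, 0.532% were at least 2-fold lower, and 4.64% were measured on the array labelled TKO alone. These shares give the background, and nothing is read from the members' count, since they were chosen on this difference. The median log2 ratio was 3.18 for the 6 genes and -0.03 for all measured genes. With the floor raised to the 75th percentile of each array, 2 of the 6 genes (Reln and Pou3f3) were at least 2-fold higher.

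**Figure D1:**
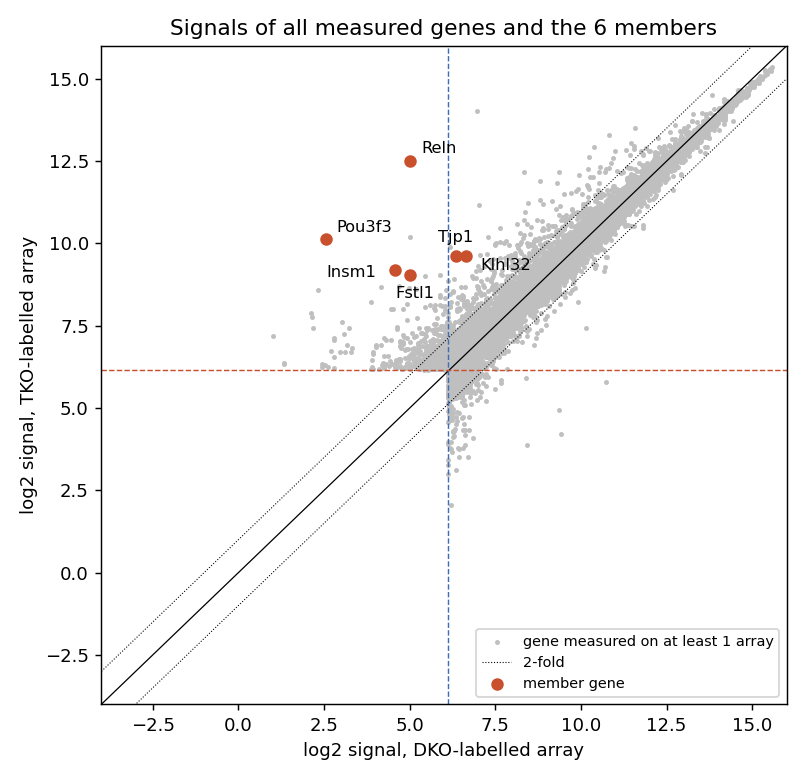
Log2 signal of each of the 11280 measured genes on the array labelled DKO (x axis) and the array labelled TKO (y axis), with the 6 members named; the solid line marks equal signals, dotted lines 2-fold and dashed lines the floors. The members lie above the upper 2-fold line, with Reln, Pou3f3, Insm1 and Fstl1 left of the DKO floor.

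Reln stood far above its level on the array labelled DKO with 1 probe set and not with the other. Probe set 1449465_at, annotated with the RefSeq transcript NM_011261, read 32.5 on the array labelled DKO and 5846 on the array labelled TKO, at least 84.9-fold higher (log2 ratio 6.41). The DKO value is under the floor and the TKO value is far over it. The second probe set, 1458020_at, from the expressed sequence tag BB386261, read 16.1 and 25.7, below the floor on both arrays, and so has no ratio. An average that enters this unmeasured probe set at the floor of each array, where it adds almost no difference, would be 3.23.

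Pou3f3 showed the same division between probe sets. Probe set 1435197_at read 5.86 on the array labelled DKO and 1126 on the array labelled TKO, at least 16.4-fold higher (log2 ratio 4.03). Without the floor this ratio would be 192-fold, against a DKO signal that lies under the floor. The other, 1422331_at, read 1.22 and 17.1, below the floor on both arrays, although it is annotated with the RefSeq transcript NM_008900. For Pou3f3 the probe set annotated with the RefSeq transcript was thus the one without a measured signal, the opposite of Reln. The same kind of average, with the unmeasured probe set entered at the floors, would be 2.05.

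Insm1 and Fstl1 were higher with both of their probe sets. Insm1 read 23.8 and 586 with 1455865_at, at least 8.51-fold higher, and 16.6 and 312 with 1421399_at, at least 4.53-fold higher. Fstl1 read 32.1 and 530.3 with 1416221_at, at least 7.70-fold higher. Its second probe set, 1448259_at, read 7.08 and 324, at least 4.70-fold higher. In these genes each DKO value was below the floor and each TKO value above it. The Fstl1 probe sets share the source sequence BI452727, so they are not separate evidence of the transcript. The plain ratios of the unfloored signals were 16.5-fold and 45.7-fold for the Fstl1 probe sets, in the reverse order of the floored ones.

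Tjp1 and Klhl32 were measured on both arrays, so their ratios are not bounds with the reported floor. With the 75th-percentile floor both were under it on the array labelled DKO, and their log2 ratios were bounds of 0.90 and 0.93. Tjp1, with a single probe set (1417749_a_at), read 81.2 on the array labelled DKO, just above the floor, and 778 on the array labelled TKO, 9.59-fold higher (log2 ratio 3.26). Klhl32 read 99.5 and 793 with 1458375_at, 7.97-fold higher (log2 ratio 2.99). Its 1445550_at read 97.8 and 115, a log2 ratio of 0.23, and 1445907_at read 41.1 and 42.0, below the floor on both. The 3 Klhl32 probe sets come from 3 different expressed sequence tags, and 1 of them differed by 2-fold. The average over all 3, which enters the unmeasured probe set at the floors, was 1.10.

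Over the 12 probe sets, 9 were measured and 8 of these were at least 2-fold higher, against 2.97% of all 20400 measured probe sets with 1 gene. The other 3 were below the floor on both arrays. Unmeasured second probe sets were common among other genes too. The probe set brightest on average stands for its gene, so the others are dimmer by that choice, which bears on the shares that follow. Of the 404 genes at least 2-fold higher, 217 had another probe set, and 118 of those (54.4%) had one below the floor on both arrays. Another measured probe set was present for 157 of them, and all such probe sets were at least 2-fold higher in 52 (33.1%). Insm1 and Fstl1 are among these 52, and Klhl32 is not.

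**Figure D2:**
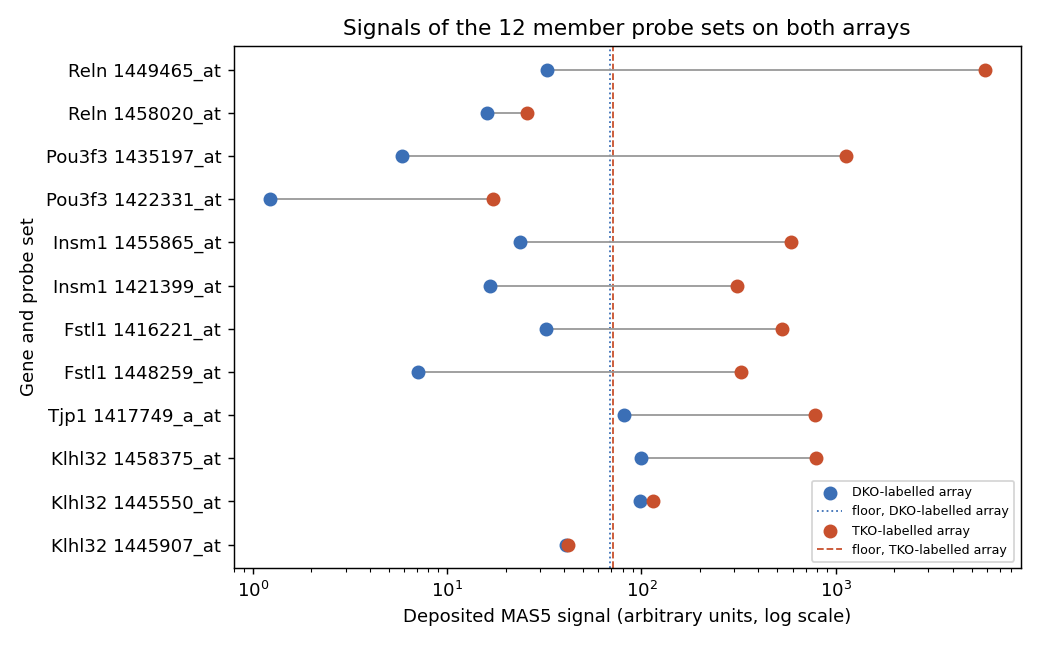
Deposited MAS5 signal (log axis, arbitrary units) of the 12 probe sets of the 6 genes on the DKO (blue) and TKO (orange) arrays, 1 array each; vertical lines are the floors of 68.8 and 71.8. In 6 probe sets the pair of points spans the floor, in 3 both points lie to its left and in 3 both lie to its right.

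The genes nearest to each member in the order of log2 ratio were mixed in kind. With 2 arrays a pattern is a single ratio, so likeness here is the difference in log2 ratio and covers no more than this contrast. Reln ranked 2 of 11280, after Xist (7.05) and before the myeloid lectin gene Chil3 (4.14) and G530011O06Rik (4.08), which also precede Pou3f3 at rank 5. Behind Pou3f3 came the immunoglobulin segment Ighv14-2 (3.83) and the R-spondin receptor Lgr5 (3.69). Tjp1, Insm1, Klhl32 and Fstl1 took ranks 8, 9, 11 and 12, with the interferon-inducible Ifi209 (3.07) between Insm1 and Klhl32. Egr2 (2.93) and the forkhead gene Foxf2 (2.89) followed Fstl1. The order of genes with a bound is not their true order, since a lower floor would move them up.

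The rest of the reelin pathway was centred near a ratio of 1. Of 24 listed genes, 22 were measured, of which 1 was at least 2-fold higher, 0 were lower and 21 were neither (median log2 ratio 0.03). The higher one was the Src-family kinase Yes1, at 87.5 and 250 (2.85-fold), while 3 further Yes1 probe sets did not reach the floor on either array and its mean over probe sets, with these at the floors, was 0.42. Src itself had a log2 ratio of 0.98 and Fyn 0.14. The receptor Lrp8 read 355 and 320 (log2 ratio -0.15). Vldlr, the other receptor, read 95.9 on the array labelled DKO and 62.3, under the floor, on the array labelled TKO. None of the 5 Dab1 probe sets reached the floor on either array, the one that represents the gene at 5.79 and 29.6. The cytoplasmic components downstream, which many cells use, were not past 2-fold, and ran from Nck2 (-0.38) and Pik3r1 (-0.21) through Crkl (-0.03), Crk (0.03), Gsk3b (0.05) and Pafah1b1 (0.11) to Rap1b (0.24) and Cdk5r1 (0.27). With the median log2 ratio set to 0, the number of higher genes in this list was 2.

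The close relatives of Pou3f3 and the neuroendocrine genes around Insm1 were mostly unmeasured, while most SNAG factors and corepressors were measured. Of 9 POU-family genes with a probe set, 7 were below the floor on both arrays, among them the paralogs Pou3f1 (7.89 and 5.31), Pou3f2 (22.0 and 27.5) and Pou3f4 (33.3 and 29.1). Pou4f1 and Pou6f1 were measured, at log2 ratios of 0.20 or more and -0.15, neither past 2-fold. Of 14 neuroendocrine genes, 13 were below the floor on both arrays, including Insm2 (30.7 and 44.2), the differentiation factor Neurod1 (8.49 and 22.5) and the granule protein gene Chga (22.3 and 26.4). The one measured was Pax6, at a log2 ratio of -0.13 or below. A list of SNAG-motif factors and the corepressors they recruit had 9 measured genes, 0 of them past 2-fold, and a median log2 ratio of -0.12. Its 7 measured corepressor genes were above the floor on both arrays and lay between -0.38 (Hmg20b) and 0.10 (Phf21a). Kdm1a, the histone demethylase of that complex, read 4398 and 3981. The haematopoietic SNAG factor Gfi1 had a log2 ratio of -0.12, and Gfi1b, measured on the array labelled TKO alone at 131, was at 0.92 or more.

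Genes around Fstl1 and Tjp1 likewise gave few differences. In the BMP and follistatin list 12 of 20 genes were measured, 1 was at least 2-fold higher, 0 were lower and 11 were neither, with a median of 0.08. The type I BMP receptor Bmpr1a was the higher one, at 406 and 950 (log2 ratio 1.23 for 2.34-fold). Its 4 other measured probe sets lay between 0.16 and 0.96, and its mean over all probe sets, 1 of them entered at the floors, was 0.67. Follistatin itself (Fst) was below the floor on both arrays at 24.7 and 24.1, Fstl3 had -0.18, and Bmp7 had -0.70 (364 and 225). All 7 further members of the SPARC family, to which Fstl1 is related, were below the floor on both arrays. Of the tight junction list 12 of 22 genes with a probe set were measured and 0 passed 2-fold in either direction, with a median of -0.21. With the floor lowered to the 25th percentile of each array 5 of its genes were at least 2-fold higher. The BMP and follistatin list then had 3, the SPARC family 0, and the reelin, POU, neuroendocrine, SNAG and Kelch-like lists 1 each. Over all genes, 962 of 15873 measured were at least 2-fold higher with that floor. The claudin gene Cldn5 read 6.57 and 106, at least 1.54-fold higher with the reported floor. Tjp3 read 267 and 234, and Afdn, an adaptor of cell junctions that binds ZO-1, had -0.93 (2804 and 1474). Ocln, which encodes occludin, was among the 10 below the floor on both arrays.

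Of the Kelch-like and Cul3 list 26 of 35 genes were measured, 1 was at least 2-fold higher, 0 were lower and 25 were neither, with a median of -0.01. Klhl14 was the higher one, at 98.9 and 408 (4.13-fold), and Cul3 had -0.16. Klhl33 was below the floor on both arrays. Over the 8 lists together 3 of 84 measured genes (3.57%) were at least 2-fold higher, near the 3.58% of all genes, and 0 were lower.

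Among genes listed as markers of other tissues, those of neuron, fibroblast and endothelium were mostly below the floor. Most of those of epithelium were measured. A measured marker does not show that cells of that tissue were present, and which cells gave these signals was not tested. Over all genes, 6913 of 18193 were below the floor on both arrays. Of 11 neuron markers 8 were below it on both arrays, including Snap25, Syt1 and Gad1, 1 was at least 2-fold higher and 2 were neither. The higher one was Map2, a microtubule-associated protein of dendrites, at 95.2 and 294 (3.09-fold), and its 3 other probe sets reached the floor on neither array. The summed signal of the neuron list was 729 and 967. Of 7 fibroblast markers 3 were measured and 0 passed 2-fold, with a median log2 ratio of 0.36 and a summed signal of 437 and 491. The collagen gene Col3a1 (57.0 and 117) and the proteoglycan gene Dcn (52.2 and 88.6) were measured on the array labelled TKO alone, at log2 ratios of at least 0.77 and 0.36. Fbln1 had -0.62, and Col1a1 was below the floor on both at 28.5 and 18.5. Of 8 endothelium markers Pecam1 was the one measured (log2 ratio 0.36), Cdh5 was below the floor, and the sums were 476 and 516. Of 8 epithelium markers 5 were measured and 0 passed 2-fold, with sums of 2256 and 2203. Epcam read 822 and 688, Cdh1 818 and 862, and Krt18 366 and 337. The thymic epithelial factor Foxn1 was below the floor at 24.8 and 27.7. Myeloid markers were higher for 2 of 4 measured genes, Csf1r (249 and 807) and Lyz2 (855 and 2131), with sums of 1391 and 3276.

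**Figure D3:**
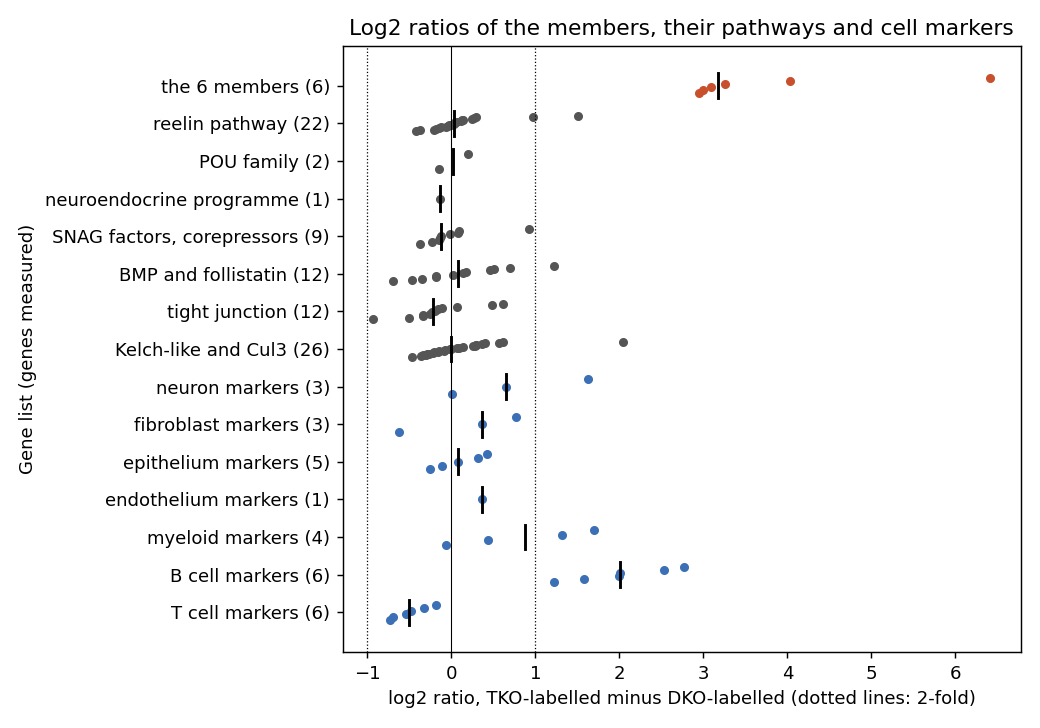
Log2 ratio (x axis, TKO minus DKO) of each measured gene of the 6 members, of 7 of the 8 pathway lists (grey) and of 7 marker lists (blue), with a bar at each median and dotted lines at 2-fold; the SPARC family had no measured gene. The members lie between 2.95 and 6.41, the reelin pathway is centred at 0.03, and the B cell markers lie between 1.22 and 2.77.

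Genes next to the members on their chromosomes were compared, taking the 3 nearest with a probe set on each side. The members lie on chromosomes 5 (Reln), 1 (Pou3f3), 2 (Insm1), 16 (Fstl1), 7 (Tjp1) and 4 (Klhl32). Of the 36 neighbours 21 were measured, 1 was at least 2-fold higher and 0 were lower, with a median log2 ratio of -0.01. The higher one was Pantr1, a long noncoding RNA gene beside Pou3f3, which read 37.1 on the array labelled DKO and 215 on the array labelled TKO, at least 3.12-fold higher, with 1 probe set. Dalir, a noncoding RNA gene on the other side of Pou3f3, read 11.7 and 34.8, below the floor on both. The other 20 measured neighbours lay between -0.45 (Fam189a1, as a bound) and 0.51 (Kiz, near Insm1). Beside Reln, Psmc2 and Orc5 had log2 ratios of -0.33 and 0.18, and Slc26a5 and Lhfpl3 were below the floor on both arrays. Mms22l and Ndufaf4, on either side of Klhl32, had -0.21 and -0.10.

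**Figure D4:**
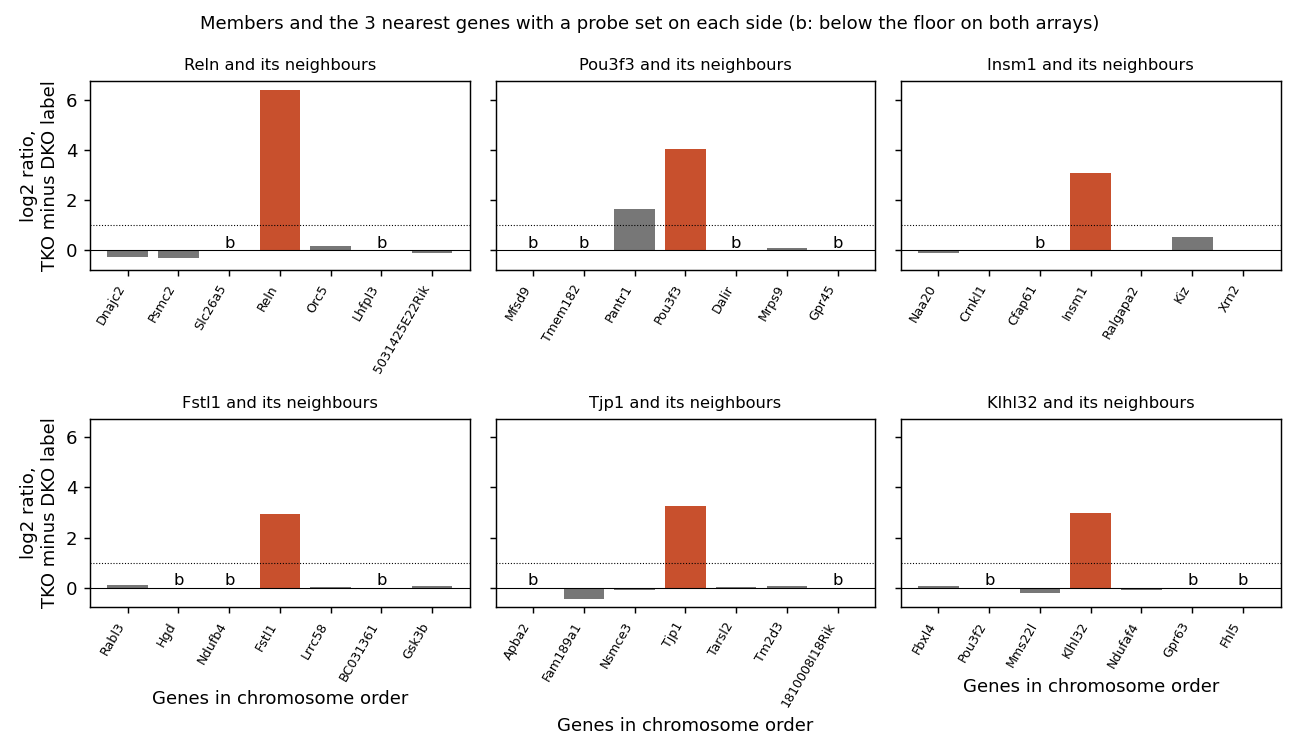
Log2 ratio (y axis) of each member (orange) and of the 3 nearest genes with a probe set on each side (grey), in chromosome order and not to distance; b marks a gene below the floor on both arrays, and bars of genes measured on 1 array are bounds. Pantr1 beside Pou3f3, at 1.64, is the grey bar past the dotted 2-fold line.

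**Figure D5:**
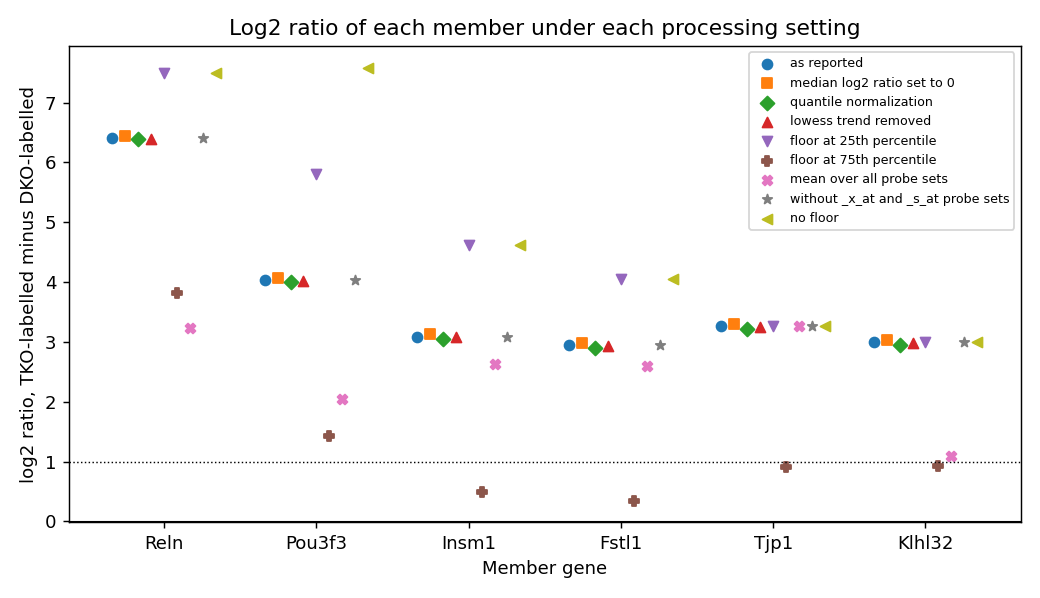
Log2 ratio (y axis) of each member gene under the reported processing and 8 other settings, with the 2-fold limit dotted. The scaling settings fall together, the 75th-percentile floor puts Insm1, Fstl1, Tjp1 and Klhl32 below the limit, and averaging probe sets, the unmeasured one entered at the floors, brings Reln from 6.41 to 3.23.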

How the data were processed

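Biotin-labelled cRNA from 6 ug of total RNA was hybridised to 1 array per label. The authors deposited linear intensity values, each summarising a probe set; the submitters' processing notes list MAS5, with no version or settings. Both arrays had a mean of 497 after trimming 2% at each end, and no further scaling was applied. The platform annotation gave a single gene for 34945 of the 45037 probe sets, several for 932 and none here for 9160, and 99.4% of the first were matched by Entrez ID to RefSeq (GRCm38.p6), used for symbols, gene order and promoter windows. The probe set brightest on average over both arrays (log2) stood for its gene. No ratio was given to the 6913 genes under both floors. The members, lists and settings were chosen with earlier results of these data known. Named were the members, their closest paralogs, the reelin receptors and Dab1, list genes past 2-fold, neighbours, and the 2 genes next in ratio order on each side; other genes were chosen after their values were seen. Alternatives were other scalings, floors, probe set averaging and the removal of cross-hybridising probe set types. The procedure was checked on simulated data with changes placed in genes far above the DKO floor. That check does not cover bounds or signals near the floor, where the members lay on the array labelled DKO. Python 3.11.15, numpy 2.4.6, pandas 2.3.3, statsmodels 0.14.6 and matplotlib 3.10.9 were used.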

Additional observations from a re-analysis of the deposited data

Results flagged for a closer look

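A probe set annotated to both Pou3f3 and the adjacent noncoding RNA gene 2900092D14Rik was left out of the comparison because it has no single gene. It read 25.2 for DKO and 119 for TKO, at least 1.73-fold higher (log2 ratio 0.79), so it was below the floor on the first array and above it on the second. Which of the genes it reads was not tested.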

How the results depend on the processing

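All 6 members were at least 2-fold higher after median centring, quantile normalization, lowess, the 25th-percentile floor, averaging of probe sets and removal of cross-hybridising probe set types. For several of these settings the outcome was fixed beforehand, in whole or in part. Median centring subtracts the same log2 ratio, -0.03, from every gene, and the lowest member ratio was 2.95. Averaging could not change Tjp1, which has a single probe set. No member probe set is of the removed types, and a lower floor cannot shrink a ratio whose TKO signal is above the floor. With the 75th-percentile floor 2 of the 6 genes and 2 of the 12 probe sets were, and the log2 ratios of Insm1, Fstl1, Tjp1 and Klhl32 were 0.49, 0.35, 0.90 and 0.93, since a higher floor shrinks each ratio. Over all genes, 962 of 15873 measured were higher and 434 lower with the 25th-percentile floor, and 147 of 7191 higher and 14 lower with the 75th. Genes of the pathway lists past 2-fold numbered 17 of 132 measured (13 higher, the rest lower) and 1 of 50 (higher) with these floors, and 1 of 84 (higher) as the mean over probe sets. That mean enters probe sets below both floors at the floors. No paired analysis was possible because each label had 1 array. Signals near or below the floor limit every ratio of a dim gene.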

Other observations

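Genes measured on a single array were counted on each side. Of 523 genes measured on the array labelled TKO alone 89 were at least 2-fold higher and 21 at least 4-fold, against 13 and 5 lower among the 441 measured on the array labelled DKO alone. The first 15 of the 523 by ratio, which include Reln, Pou3f3, Insm1 and Fstl1, were mixed in kind, and the others were chosen after their values were seen. Foxf2, a forkhead factor of mesenchyme, read 43.4 and 510.4, Il33, an alarmin cytokine of barrier and stromal cells, 18.0 and 408, and Reg3g, an antibacterial lectin of gut epithelium, 5.03 and 382. Tmem132e read 25.7 and 415, Ralyl 31.7 and 404, and Elfn1, a synaptic adhesion protein, 66.8 and 384. Gzmc, a granzyme of cytotoxic lymphocytes, read 36.7 and 388, and the immediate-early factor gene Egr2 58.8 and 526. Enpp3 read 59.7 and 343, P2ry10b 59.1 and 329, and G530011O06Rik 32.4 and 1163.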
